A study of Mus musculus with 13 samples.

Results

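The comparison described here is αGalCer against vehicle in the epididymal white fat of mice that lack CD1d. It uses the 3 arrays titled as knockout after αGalCer and the 3 titled as knockout after vehicle, 6 of the 13 arrays of the study, across all 18818 genes tested. Gene expression was measured on Affymetrix gene arrays. The knockout mice were of the strain B6.129S6-Cd1d1/Cd1d2tm1spb/J, whose name lists both mouse CD1d genes, and they carry the deletion in every cell. The 7 other arrays came from wild type C57/BL6 mice, 3 after vehicle and 4 after αGalCer, and serve as the measure of the response when CD1d is present. All mice were males of 6.5 weeks, and all ate a high fat diet for 4 days, so no group shows fat on another diet. αGalCer at 100 ng per gram, or pyridine as its vehicle, was injected into the peritoneum on day 0 and again on day 2, and the fat was taken on day 4. No label states that the replicate arrays of a group came from separate animals, so a p-value here measures the spread between arrays, part of which may be technical.

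CD1d is a surface protein that resembles MHC class I and presents lipids instead of peptides. Natural killer T (NKT) cells recognise lipids on CD1d through a T cell receptor of little diversity, need CD1d to develop in the thymus, and are numerous in fat. αGalCer (α-galactosylceramide) is a glycolipid that binds CD1d and activates NKT cells, which then release IL-4, interferon γ and other cytokines. The study's title links NKT cell activation to alternatively activated (M2) macrophages in fat through IL-4 and STAT6. The knockout arrays address whether fat responds to the injected lipid when neither CD1d nor the cells that depend on it are present.

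Values are on the log2 scale as deposited, a difference of 1 is 2-fold, and every difference is αGalCer minus vehicle unless said otherwise. Each ± after a difference is its standard error (SE). It rests on a spread estimated over all 13 arrays, so it can exceed the spread of the knockout arrays alone, or fall below it. All p-values come from 1 limma model of the 13 arrays, with Benjamini-Hochberg adjustment over the 18818 genes, and a gene is called when its adjusted p is under 0.05. Cd1d1, the targeted gene, read 10.67, 10.55 and 10.86 in wild type fat after vehicle and 9.08 to 10.01 in the 4 wild type arrays after αGalCer. In knockout fat it read 3.45, 4.03 and 3.72 after vehicle and 3.56, 2.64 and 3.24 after αGalCer, so every knockout array lay far below every wild type array. Cd1d2 in knockout fat read 4.65, 4.74 and 4.88 after vehicle and 4.62, 5.01 and 4.77 after αGalCer, with overlapping groups (0.04 ± 0.13, adjusted p = 0.948). In wild type it read 4.62 to 5.05, a range that covers the knockout values, so these values do not check its deletion. The fat marker Adipoq (adiponectin, a hormone of adipocytes) read between 12.28 and 12.48 in all 6 knockout arrays.

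Lists of genes typical of other tissues differed in level between single knockout arrays. A list of 29 measured genes of ciliated and ductal epithelium averaged 7.16, 5.71 and 4.94 in the 3 vehicle arrays and 4.65, 4.74 and 4.66 in the 3 αGalCer arrays, so vehicle array 1 was highest and the groups did not overlap. A list of 36 skeletal muscle genes averaged 7.12, 5.97 and 5.37 after vehicle and 5.14, 5.25 and 7.52 after αGalCer, against 5.01 to 5.59 in wild type. Its highest arrays were vehicle array 1 and αGalCer array 3, 1 in each group. Myh4, a myosin heavy chain of fast muscle, read 9.70, 7.89 and 5.22 after vehicle and 4.22, 4.12 and 9.93 after αGalCer. A list of 13 liver genes, added after the data were seen, averaged 6.27, 5.55 and 7.29 after vehicle and 5.77, 5.93 and 5.84 after αGalCer, with vehicle array 3 highest. The first principal component of the 6 knockout arrays took 69.1% of their variance and set vehicle array 1 (score 59.5) apart from the other 5 arrays (-17.3 to 2.0). Its leading genes were Dao, Mmp7, Sectm1b, Cdhr5 and Fam183b, which are described below. The second component (11.8%) ran from αGalCer array 1 (17.2), led by Gpnmb, Ccl3, Fos and Rgs1, to αGalCer array 3 (-17.7), led by the muscle genes Pvalb, Myh4 and Atp2a1.

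**Figure D1:**
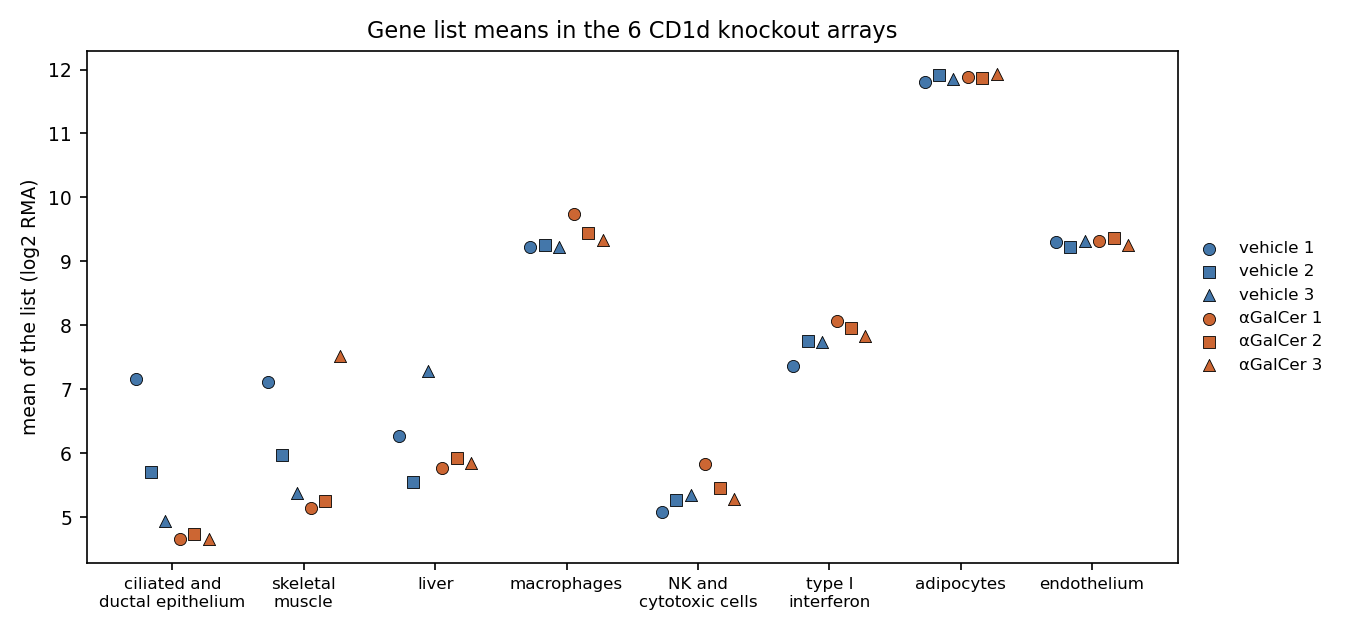
Mean log2 RMA value of 8 gene lists (x axis) in each of the 6 CD1d knockout arrays, blue after vehicle and orange after αGalCer, with a marker shape per array number. Epithelium is highest in vehicle array 1 (7.16), muscle in αGalCer array 3 (7.52) and liver in vehicle array 3 (7.29), while the adipocyte list stays between 11.80 and 11.93 and the macrophage list is highest in αGalCer array 1 (9.74).

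No gene was called in knockout fat. Of the 18818 genes, 0 passed an adjusted p under 0.05 (0% of genes tested), and the lowest adjusted p was 0.599, for the elastase Mmp12. At an unadjusted p under 0.05 limma gave 1281 genes (6.81%), 641 higher and 640 lower after αGalCer. In wild type fat the same model called 7881 genes (41.9%), of which 3733 rose (19.8%) and 4148 fell (22%). The test of the difference between the genotypes' effects called 5309 genes (28.2%), 2698 with the higher effect in knockout (14.3%) and 2611 with the lower (13.9%). The 0 in knockout held in 17 of 20 alternative settings. Array weights, which gave vehicle array 1 a weight of 0.195 and vehicle array 2 a weight of 5, called 322 genes, 175 higher and 147 lower, and 0 when vehicle array 1 was also left out. Another exception was 2 genes without vehicle array 3 (Fam183b, -4.09, and Lcn2, -2.95, adjusted p = 0.0366 each). The last left out the 3 arrays highest in muscle, so that vehicle array 3 stood alone against αGalCer arrays 1 and 2. There the liver genes Apoa1 (-2.01) and Pzp (-1.46) passed, and both read highest in vehicle array 3.

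Most differences had narrow 95% intervals, over all genes with no filter on dim ones, whose differences the processing understates. The 95% interval of the difference in knockout lay within 2-fold either way for 17675 genes (93.9%) and within 1.5-fold for 14905 (79.2%), and the median half-width of the interval was 0.28. The groups did not overlap for 2603 genes (13.8%), 1466 of them higher after αGalCer (7.79%) and 1137 lower (6.04%). A share of 0.1 of the possible orders of 3 against 3 arrays has no overlap, so some separation can arise by order alone. In wild type 46.7% of genes had no overlap, but with 4 against 3 arrays, where fewer orders separate the groups. Differences of at least 2-fold without overlap went mostly downwards, with 150 genes lower (0.797%) and 8 higher (0.0425%). Vehicle array 1 was the highest of the 6 arrays in 149 of the 150, against 6064 of all 18818 genes. It was also the lowest in 7 of the 8, against 6184 of all 18818 genes. Without it, 50 of the 150 still differed by at least 2-fold, and the median difference of the 150 went from -1.62 to -0.78.

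Gzmb, Gzma, Prf1, Ifng and Zbtb16, genes of NKT cells and cytotoxic lymphocytes, the cells that αGalCer addresses first, had small differences in knockout fat. Granzyme B (Gzmb), a protease that killer cells use to kill their targets, read 4.98, 5.08 and 4.81 after vehicle and 5.24, 5.01 and 4.94 after αGalCer. The groups overlapped (0.10 ± 0.15, 95% interval -0.22 to 0.43, adjusted p = 0.874), while Gzmb rose by 5.82 ± 0.14 in wild type, and the difference of -5.72 between the effects was called (adjusted p = 2.52e-08). Granzyme A (Gzma) read 6.01, 5.94 and 5.96 after vehicle and 6.58, 6.15 and 5.88 after αGalCer, with αGalCer array 1 highest. Its difference was 0.23 ± 0.19 in knockout, or 0.05 without that array, against a rise of 4.57 in wild type. Perforin (Prf1), which opens the target cell's membrane, differed by 0.32 ± 0.26 and rose by 4.10 in wild type. Interferon γ (Ifng), the main macrophage-activating cytokine of these cells, read 4.78, 4.84 and 5.25 after vehicle and 5.16, 5.22 and 5.06 after αGalCer. Its groups overlapped (0.19 ± 0.20), and it rose by 3.17 in wild type. Zbtb16, which encodes the NKT transcription factor PLZF, read 11.13 to 11.37 in all 6 knockout arrays (-0.08 ± 0.21), in mice without NKT cells, and fell by 1.76 in wild type.

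The wider lymphocyte lists had small positive medians. The 15 measured NKT genes had a median difference of 0.30 in knockout and 2.50 in wild type, and for all genes these medians were 0.01 and -0.02. None of the 15 was called, and 6 were higher without overlap, against 7.79% of all genes. The list averaged 5.51, 5.52 and 5.53 after vehicle and 5.89, 5.72 and 5.67 after αGalCer, so the groups did not overlap. Its median was 0.25 without vehicle array 1 and 0.22 without αGalCer array 1. Its largest value belonged to Cd44, the hyaluronan receptor that marks activated lymphocytes and is also made by other leukocytes (0.59 ± 0.21, adjusted p = 0.72, 0.35 without vehicle array 1). Among 18 genes of NK and cytotoxic cells the median was 0.29 in knockout and 2.92 in wild type. For all 18 the difference between genotypes was called, against 28.2% of all genes. The list averaged 5.08, 5.26 and 5.35 after vehicle and 5.83, 5.46 and 5.29 after αGalCer, so the groups overlapped, and without αGalCer array 1 the median was 0.09. Klrc1, the receptor NKG2A, read 3.92, 4.77 and 4.91 after vehicle and 5.86, 4.96 and 4.99 after αGalCer, where array 1 was highest. Its difference of 0.74 ± 0.30 became 0.44 without αGalCer array 1 and 0.43 without vehicle array 1. The median over 19 T cell genes was 0.11. Cd3e, a chain of the T cell receptor complex, overlapped between groups (-0.15 ± 0.17), and Il7r, the receptor of the survival cytokine IL-7, was higher in every αGalCer array (5.84, 6.56 and 6.69 against 7.86, 7.10 and 6.83; 0.90 ± 0.34, adjusted p = 0.72). In whole tissue, fewer cells of a type and less RNA per cell cannot be told apart.

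The IL-4 axis named in the study's title did not pass the test at any step in knockout fat. Il4, the cytokine, read 3.67, 3.63 and 3.91 after vehicle and 3.76, 4.29 and 3.87 after αGalCer. The groups overlapped (0.24 ± 0.16, interval -0.12 to 0.59), and against the rise of 1.66 in wild type the difference of -1.43 was called (adjusted p = 0.00038). Il13, its close relative, differed by -0.14 ± 0.24, and its difference from wild type was not called (adjusted p = 0.0625), though it was without wild type αGalCer array 3 (-1.07). The receptor chain Il4ra read 9.21, 8.70 and 9.0 after vehicle and 9.02, 8.93 and 8.97 after αGalCer, with the αGalCer arrays inside the range of the vehicle arrays. Its difference was 0.01 ± 0.23, with an interval of -0.49 to 0.51, against a rise of 2.22 in wild type. Stat6, the transcription factor below the receptor, differed by 0.08 ± 0.07 in knockout and rose by 0.18 in wild type, and this gap was not called (adjusted p = 0.526). Of 16 genes of the axis 0 were called, and the median was 0.06. For 11 of the 16 the called difference from wild type was lower in knockout and for 1 higher (13.9% and 14.3% of all genes). The chemokine Ccl17, an IL-4 target in macrophages and dendritic cells, was lower in every αGalCer array (6.59, 5.83 and 5.99 against 5.38, 5.54 and 5.29). That difference of -0.73 ± 0.45 was not called (adjusted p = 0.771), and Ccl17 rose by 2.70 in wild type.

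Markers of alternatively activated macrophages divided into those at their vehicle level and a few that were higher. Chil3 (Ym1), a chitinase-like protein secreted by such macrophages, read 4.61, 3.65 and 3.43 after vehicle and 3.54, 4.14 and 3.06 after αGalCer. The groups overlapped (-0.31 ± 0.37, interval -1.13 to 0.50, and 0.04 without vehicle array 1), while the 4 wild type arrays after αGalCer read 10.86 to 11.37. The difference of -7.38 between the effects was called (adjusted p = 3.4e-06). Arg1, which turns arginine into ornithine, read 7.38, 6.01 and 6.25 after vehicle and 6.71, 6.09 and 6.08 after αGalCer. It differed by -0.25 ± 0.47 in knockout (0.16 without vehicle array 1) and rose by 5.14 in wild type. Retnla, a secreted resistin-like protein, read 11.31, 11.53 and 11.48 after vehicle and 11.19, 11.16 and 11.34 after αGalCer (-0.21 ± 0.13), and the difference of -0.94 from wild type was called (adjusted p = 0.00164). The mannose receptor Mrc1 read 9.22, 9.90 and 9.95 after vehicle and 10.10, 9.97 and 9.92 after αGalCer, and its difference of 0.31 ± 0.22 became 0.07 without vehicle array 1. The lectin receptors Clec10a (0.13 ± 0.22) and Mgl2 (-0.10 ± 0.17) overlapped between groups, as did the checkpoint ligand Pdcd1lg2 (0.10 ± 0.16), which rose by 5.51 in wild type. The anti-inflammatory cytokine Il10 read 3.82, 3.77 and 3.52 after vehicle and 4.16, 3.84 and 4.08 after αGalCer, higher in every αGalCer array but not called (0.32 ± 0.20, adjusted p = 0.775). The haemoglobin scavenger receptor Cd163 was likewise higher without overlap (0.23 ± 0.19, 0.11 without vehicle array 1). Over the whole list of 23 genes, 0 were called, 8 were higher and 0 lower without overlap (7.79% and 6.04% of all genes), and the median was 0.23, or 0.13 without vehicle array 1. Those 8 include Gpnmb and Mmp12, which are described further on.

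General macrophage genes were the immune list with the largest share of members higher without overlap. Adgre1, which encodes the mouse macrophage marker F4/80, read 8.71, 9.05 and 9.09 after vehicle and 9.80, 9.44 and 9.17 after αGalCer. All αGalCer arrays lay above all vehicle arrays, with αGalCer array 1 highest (0.52 ± 0.30, interval -0.13 to 1.16, adjusted p = 0.766). Adgre1 rose by 1.39 in wild type, and the difference between the genotypes was not called (adjusted p = 0.143). Of 22 measured genes of this list 21 had a difference above 0, against 54.1% of all genes, and 10 were higher without overlap, against 7.79%, but 0 were called. The list averaged 9.23, 9.26 and 9.22 after vehicle and 9.74, 9.45 and 9.34 after αGalCer, and 10.53 to 10.68 in wild type after αGalCer. The median was 0.28, and it was 0.31 without vehicle array 1 and 0.15 without αGalCer array 1. Ccr2, the receptor that draws monocytes out of the blood, had the largest value (7.34, 8.09 and 8.13 against 8.84, 8.36 and 8.25; 0.63 ± 0.33, and 0.37 without vehicle array 1). Ctss, a lysosomal protease that prepares MHC class II for peptides, read 8.46, 8.53 and 8.67 after vehicle and 9.74, 9.12 and 9.0 after αGalCer. It was higher in every αGalCer array (0.73 ± 0.24, adjusted p = 0.72).

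Inflammatory and interferon genes followed the same outline. Among 26 genes of the interferon γ response and MHC, 0 were called in knockout. Their median was 0.10 in knockout and 2.26 in wild type. For all 26 the difference between genotypes was called, against 28.2% of all genes. The weakest of these was Gbp7, a guanylate-binding protein (-1.43, adjusted p = 0.0466), whose call was lost without any 1 of 9 arrays (-1.52 to -1.06). The chemokine Cxcl9, a standard interferon γ target, read 9.95, 10.28 and 10.45 after vehicle and 10.31, 10.19 and 10.28 after αGalCer, with overlapping groups (0.04 ± 0.13, interval -0.24 to 0.31). Cxcl10 differed by 0.10 ± 0.21 and rose by 4.13 in wild type. Ccl8, a chemokine of macrophages, read 7.39, 6.74 and 6.27 after vehicle and 7.11, 6.40 and 5.78 after αGalCer (-0.37 ± 0.44, -0.08 without vehicle array 1) and rose by 4.63 in wild type. The inducible nitric oxide synthase Nos2 differed by 0.06 ± 0.30. Tnf, the inflammatory cytokine, read 5.22, 5.22 and 5.28 after vehicle and 6.02, 5.65 and 5.24 after αGalCer (0.40 ± 0.35, 0.20 without αGalCer array 1). Of 22 genes of classical activation 21 had a difference above 0, against 54.1% of all genes. Their median was 0.18, or 0.08 without αGalCer array 1, and Ptgs2 (cyclooxygenase 2) led them (6.16, 6.42 and 6.58 against 7.20, 7.26 and 6.73; 0.67 ± 0.41, adjusted p = 0.77). The type I interferon list, genes that cells switch on against viruses, had a median of 0.34 over 23 genes, with 9 higher without overlap, against 7.79% of all genes, and 0 called. Its median was 0.20 without vehicle array 1, the array in which the list was lowest (7.37, against 7.74 to 8.07 in the other 5). Ifit1 of this list read 6.60, 7.91 and 7.85 after vehicle and 8.12, 8.22 and 7.90 after αGalCer (0.63 ± 0.33, 0.20 without that array). Several list medians were lower with the epithelial list mean of each array as a covariate, a measure in which the knockout groups themselves did not overlap. They were then 0.00 for type I interferon and for alternative activation, 0.07 for classical activation and -0.07 for interferon γ and MHC. For NK and cytotoxic cells the median was then 0.09, and for T cells 0.02. It was 0.20 for general macrophage genes and 0.22 for NKT genes, against 0.28 and 0.30 without the covariate. The 25 cell cycle genes had a median of 0.11 in knockout (0.01 without vehicle array 3) and 2.24 in wild type. For all 25 the difference between genotypes was called, against 28.2% of all genes. Mki67, a marker of dividing cells, read 6.54, 7.64 and 7.08 after vehicle and 7.34, 7.34 and 7.36 after αGalCer (0.26 ± 0.43). Its gap of -1.90 to wild type (adjusted p = 0.0285) lost its call without any 1 of knockout vehicle arrays 2 and 3, the knockout αGalCer arrays, wild type vehicle array 1, or wild type αGalCer arrays 2 and 3 (-1.90 to -1.44).

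Eosinophil, neutrophil, mast cell and B cell lists, which cover the other leukocytes of fat, had medians of 0.09, 0.11, -0.11 and 0.03, with 0 genes called. Ccr3, the eotaxin receptor of eosinophils, was higher in every αGalCer array (4.73, 4.86 and 4.68 against 5.51, 5.56 and 5.03; 0.61 ± 0.36, adjusted p = 0.766), and its effect in wild type was 0.57 ± 0.34, not called either. Retnlg, a resistin-like gene of neutrophils, read 5.76, 5.41 and 4.82 after vehicle and 6.36, 5.92 and 5.78 after αGalCer (0.69 ± 0.36), whereas the neutrophil calprotectin subunit S100a8 overlapped (-0.10 ± 0.44). Mcpt4, a mast cell protease, had the largest value below 0 of its list (-0.51 ± 0.22, adjusted p = 0.72, and -0.33 without vehicle array 1).

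Adipocyte genes did not follow the wild type. Adipoq read 12.28, 12.48 and 12.34 after vehicle and 12.35, 12.34 and 12.41 after αGalCer, so the αGalCer arrays lay inside the vehicle range (0.00 ± 0.25, interval -0.55 to 0.55). It fell by 1.50 in wild type, and the difference between the genotypes was called (adjusted p = 0.00552). Leptin (Lep), the satiety hormone, differed by 0.02 ± 0.24, and Pparg, the master regulator of fat cells, by 0.04 ± 0.11 with an interval of -0.20 to 0.28. Nnat, an imprinted membrane protein gene that is high in fat, read 12.69, 12.87 and 12.88 after vehicle and 12.91, 12.93 and 12.97 after αGalCer. This small step without overlap (0.12 ± 0.36, adjusted p = 0.947) stands beside a fall of 4.07 in wild type. Its SE includes the spread of the wild type arrays after αGalCer, which read 7.43 to 9.36. Pck1, which supplies the glycerol backbone of stored fat, read 11.22, 11.61 and 11.56 after vehicle and 11.84, 11.82 and 12.03 after αGalCer, higher in every αGalCer array but not called (0.43 ± 0.30, adjusted p = 0.787), and fell by 3.04 in wild type. Across 21 adipocyte genes the median was 0.01 in knockout and -1.03 in wild type, and across 20 genes of fat synthesis it was -0.02 and -1.64. All 21 and all 20 had a called difference, higher in knockout, against 14.3% of all genes. The largest adipocyte value was that of Cidea, a lipid droplet protein of thermogenic fat (4.69, 4.75 and 4.55 against 5.18, 4.98 and 5.53; 0.56 ± 0.20, adjusted p = 0.72). In the list of fatty acid oxidation the coactivator Ppargc1a was lower in every αGalCer array (7.99, 7.93 and 7.81 against 7.05, 7.59 and 7.74; -0.45 ± 0.21, adjusted p = 0.734, and -0.24 without αGalCer array 1), and it fell by 1.98 in wild type.

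Vessel and stromal genes gave a few further separations. Kdr, the VEGF receptor of endothelium, read 9.37, 9.34 and 9.31 after vehicle and 9.48, 9.46 and 9.48 after αGalCer. The groups did not overlap, but the step was 0.13 ± 0.10 (adjusted p = 0.792), against a fall of 2.57 in wild type. The apelin receptor Aplnr, also of endothelium, read 9.35, 9.28 and 9.33 after vehicle and 9.79, 9.78 and 9.56 after αGalCer (0.39 ± 0.16) and fell by 2.10 in wild type. Mmrn1, an adhesive protein that lymphatic vessels express, went the other way (8.03, 7.37 and 7.54 against 6.70, 7.25 and 6.20; -0.93 ± 0.33, adjusted p = 0.72), and it fell by 2.72 in wild type. Over 21 endothelial genes the median was 0.08, with 7 higher and 1 lower without overlap (7.79% and 6.04% of all genes). Among 16 genes of fibroblasts and fat progenitors the median was 0.16, or 0.09 without αGalCer array 1. Mfap5, a protein of elastic microfibrils, read 10.03, 10.38 and 10.39 after vehicle and 10.93, 10.91 and 10.69 after αGalCer. It was higher in every αGalCer array (0.58 ± 0.14, interval 0.28 to 0.88, adjusted p = 0.72) and fell by 0.80 in wild type, and the difference of 1.38 between the effects was called (adjusted p = 0.000152).

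**Figure D2:**
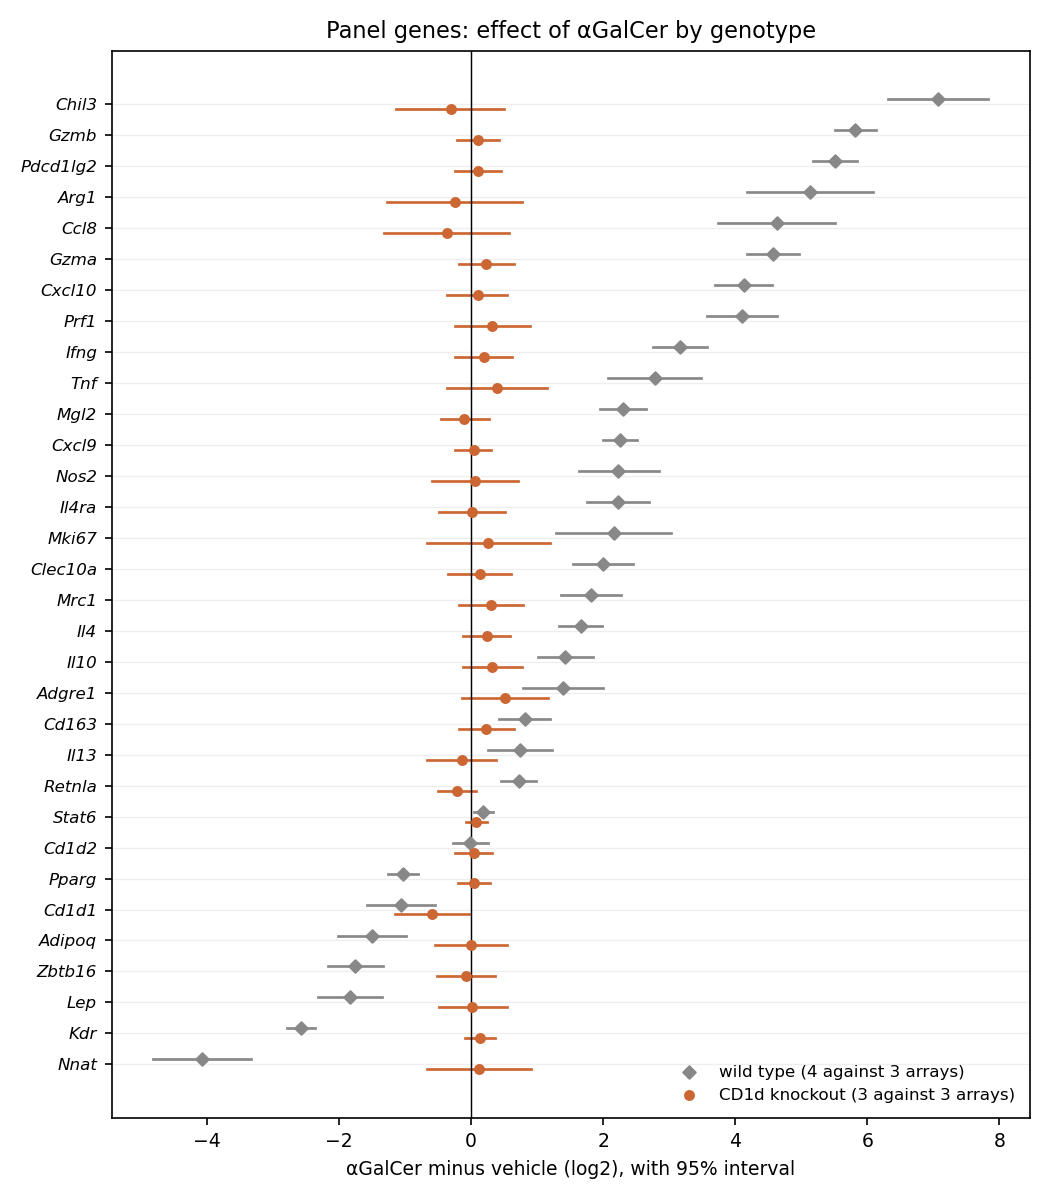
Difference between αGalCer and vehicle (log2, x axis) with its 95% interval for 32 genes of CD1d, IL-4, macrophage, cytotoxic, adipocyte and vessel biology, grey diamonds for wild type and orange circles for CD1d knockout, ordered by the wild type value. The knockout values lie between -0.59 (Cd1d1) and 0.52 (Adgre1) and the wild type values between -4.07 (Nnat) and 7.07 (Chil3).

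Taking these panel genes as 1 group of 32, 0 were called in knockout and 31 in wild type (0% and 41.9% of all genes). A called difference between genotypes was found for 26 (28.2% of all genes), 20 lower and 6 higher in knockout (13.9% and 14.3%). The 6 without a called difference were Cd1d1, Cd1d2, Stat6, Il13, Cd163 and Adgre1. Adgre1, Cd163, Il10, Kdr and Nnat were higher without overlap in knockout, and 0 were lower without overlap (7.79% and 6.04% of all genes). The panel gene with the smallest unadjusted p was Cd1d1 itself (adjusted p = 0.72).

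The largest positive differences in knockout fat belonged to an acute phase gene and to genes of macrophages and lymphocytes. Saa3, the serum amyloid A form made in fat and by macrophages, read 7.83, 7.85 and 8.23 after vehicle and 10.07, 9.36 and 9.55 after αGalCer. Every αGalCer array was more than 1 log2 unit above every vehicle array (1.69 ± 0.44, interval 0.73 to 2.65, adjusted p = 0.72). In wild type fat Saa3 rose by 1.25 ± 0.41, from 8.55, 10.45 and 10.65 after vehicle to between 10.86 and 11.77, and the gap between the effects was not called (0.44, adjusted p = 0.683). Without wild type vehicle array 1, the low one, it was called (1.10). Mmp12, the macrophage elastase, had the smallest p of all genes (adjusted p = 0.599). It read 6.53, 6.71 and 6.64 after vehicle and 7.68, 7.53 and 7.18 after αGalCer, a narrow spread in both groups without overlap (0.84 ± 0.15, interval 0.52 to 1.16). The wild type rise of 4.14 was larger, by 3.30 (adjusted p = 1.3e-06). Leaving out vehicle array 1 gave 0.79, and leaving out αGalCer array 1 gave 0.73.

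Besides Saa3, the 10 largest differences above 0 included Atp6v0d2, Gpnmb, Clec4d, Rgs1, Ly9 and Tlr13, each highest in αGalCer array 1. Atp6v0d2, Clec4d, Rgs1 and Tlr13 were also lowest in vehicle array 1. Atp6v0d2, a subunit of the lysosomal proton pump in macrophages and osteoclasts, read 5.55, 6.66 and 5.93 after vehicle and 8.12, 7.43 and 7.20 after αGalCer (1.54 ± 0.41). Gpnmb, a transmembrane glycoprotein of macrophages in obese fat, read 8.31, 8.14 and 7.85 after vehicle and 10.35, 8.97 and 8.67 after αGalCer. Its difference of 1.23 ± 0.43 became 0.72 without αGalCer array 1, which stood far above the rest. Clec4d, a lectin receptor of myeloid cells, read 3.88, 4.11 and 4.12 after vehicle and 5.94, 4.90 and 4.70 after αGalCer (1.14 ± 0.55, 0.76 without αGalCer array 1). Rgs1, a regulator of G protein signalling in lymphocytes, read 4.92, 5.29 and 4.95 after vehicle and 6.98, 5.92 and 5.48 after αGalCer. Its difference of 1.08 ± 0.31 became 0.65 without that array. Ly9, a SLAM family receptor of lymphocytes and macrophages, read 6.12, 5.91 and 6.07 after vehicle and 7.67, 6.76 and 6.60 after αGalCer (0.98 ± 0.28, 0.65 without that array). Tlr13, a sensor of bacterial ribosomal RNA, read 6.48, 7.27 and 6.98 after vehicle and 8.55, 7.70 and 7.43 after αGalCer (0.98 ± 0.36, 0.66 without that array). The adjusted p was 0.734 for Clec4d and 0.72 for the others. Atp6v0d2, Rgs1, Ly9 and Tlr13 rose by 3.65, 3.10, 2.90 and 2.97 in wild type, and their effects were lower in knockout by 2.11, 2.03, 1.92 and 1.98 (all called). In αGalCer array 1 the macrophage list (9.74) and the NK list (5.83) were at their highest for knockout fat, and their part in these results was not tested.

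The other 3 of the 10 largest differences above 0 belonged to genes of secreted proteins. Sfrp4, a secreted inhibitor of WNT signalling, read 6.30, 7.47 and 6.93 after vehicle and 7.89, 7.79 and 8.20 after αGalCer. Its difference of 1.06 ± 0.39 stands beside -0.67 in wild type, and the gap of 1.73 was called (adjusted p = 0.026). That call was lost without knockout vehicle array 1 (1.43), knockout αGalCer array 3 (1.61), wild type vehicle array 2 (1.63) or 3 (1.72), or wild type αGalCer array 4 (1.60). Scg3, a secretogranin of secretory granules, read 4.83, 5.53 and 5.78 after vehicle and 6.08, 6.29 and 6.80 after αGalCer (1.01 ± 0.32). It fell by 0.93 in wild type (gap 1.95, adjusted p = 0.00441). Tnfrsf11b, which encodes osteoprotegerin, the decoy receptor of RANKL, read 4.99, 6.36 and 6.05 after vehicle and 7.28, 6.80 and 6.64 after αGalCer. The low vehicle array 1 widened this gap, which was 1.11 ± 0.38 with it and 0.70 without it.

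**Figure D3:**
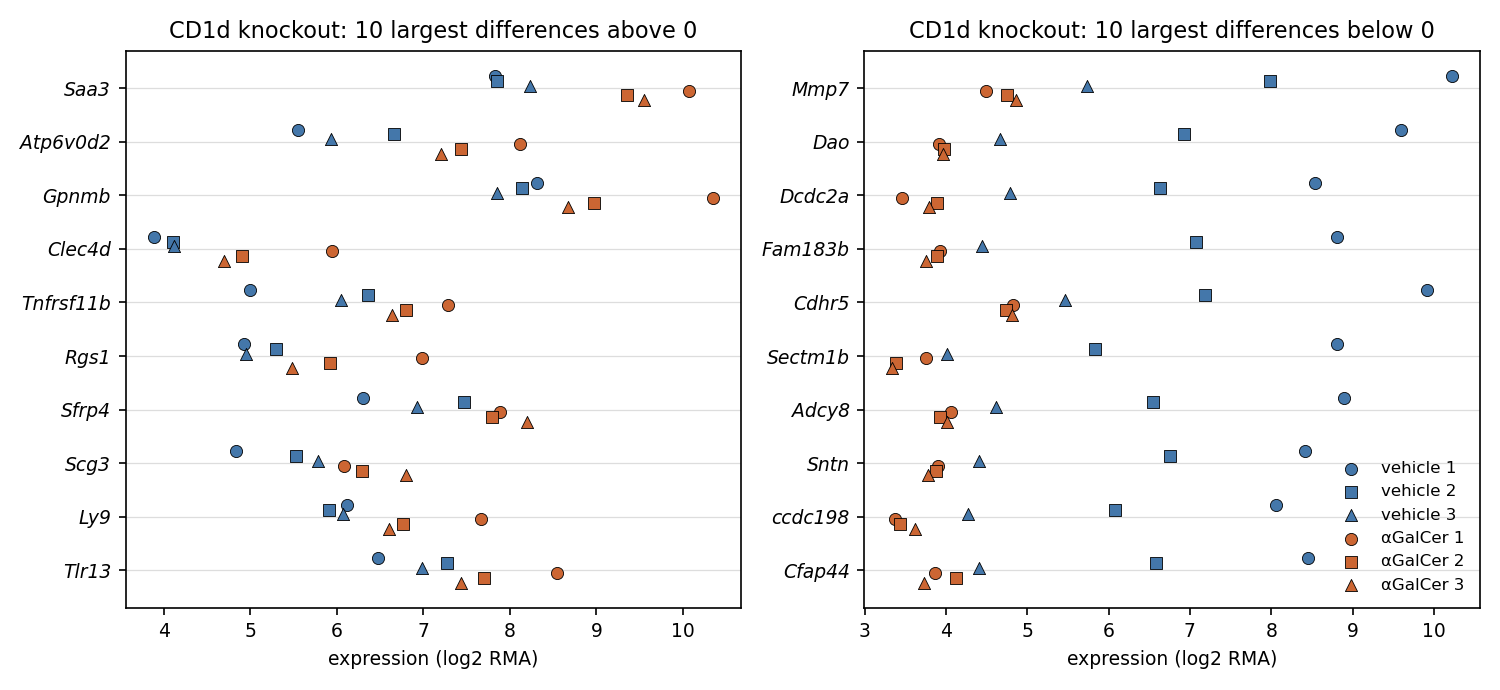
Log2 RMA values (x axis) of the 10 genes with the largest differences above 0 (left) and below 0 (right) among genes whose knockout groups do not overlap, blue after vehicle and orange after αGalCer, with a marker shape per array number. On the right vehicle array 1 is far to the right in every gene (10.22 for Mmp7) and vehicle array 3 lies close to the αGalCer arrays, whereas for Saa3 on the left the vehicle arrays lie at 7.83 to 8.23 and the αGalCer arrays at 9.36 to 10.07.

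The largest negative differences belonged to genes that were highest in vehicle array 1. Of the 10 largest, Mmp7, Dcdc2a and Cfap44 are in the fixed epithelial list. Mmp7 (matrilysin), a protease of ductal and glandular epithelium, read 10.22, 7.99 and 5.73 after vehicle and 4.49, 4.75 and 4.86 after αGalCer. The αGalCer arrays agreed closely and the vehicle arrays spread over more than 4 log2 units, so the difference of -3.28 ± 0.85 was not called (adjusted p = 0.72) and became -2.16 without vehicle array 1. Dao, the peroxisomal D-amino acid oxidase, read 9.59, 6.93 and 4.67 after vehicle and 3.92, 3.98 and 3.96 after αGalCer (-3.11 ± 0.93, -1.84 without vehicle array 1). Dcdc2a, a doublecortin family protein of cilia, read 8.54, 6.63 and 4.79 after vehicle and 3.46, 3.89 and 3.79 after αGalCer (-2.94 ± 0.74). In all 3 genes the vehicle arrays stood in the same order, and each lay above every αGalCer array. The other 7 of the 10, Fam183b, Cdhr5, Sectm1b, Adcy8, Sntn, ccdc198 and Cfap44, differed by -2.92 to -2.58, with an adjusted p of 0.72 each, and by -1.90 to -1.42 without vehicle array 1. Sntn (sentan) is a protein of the ciliary tip, Cfap44 belongs to the ciliary axoneme, and Cdhr5 is a cadherin of the brush border.

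The same genes fell in wild type fat and gave no called difference between genotypes. Mmp7 fell by 3.87 there, from 9.09, 6.92 and 9.07 after vehicle to between 4.28 and 4.68, and Dao fell by 3.48. The gaps between the genotypes' effects of these 10 genes ran from 0.20 to 0.63, and their adjusted p lay between 0.736 and 0.935. Over the 29 measured genes of ciliated and ductal epithelium, the median difference was -1.08 in knockout and -1.19 in wild type. In knockout 0 were called, 19 had an unadjusted p under 0.05 (3.4% of all genes did so downwards), and 18 were lower without overlap (6.04% of all genes). In wild type 18 fell (22% of all genes), and 0 of 29 had a called difference between genotypes (28.2% of all genes). The list median was -0.46 without vehicle array 1, and 13 of the 150 genes that were at least 2-fold lower without overlap belong to this list. Of those 150, 115 also fell in wild type and 1 rose, against 22% and 19.8% of all genes. The epithelial list averaged 6.46, 5.31 and 6.38 in wild type after vehicle and 4.62 to 4.75 after αGalCer, so in both genotypes it was the vehicle arrays that varied. Whether these values stand for tissue next to the fat pad or for an effect of the injection was not tested. The epididymis and testis list, whose organs lie beside this fat pad, averaged 3.68 to 3.82 in all 6 knockout arrays. In wild type it averaged 3.92, 3.69 and 4.63 after vehicle and 3.71 to 3.83 after αGalCer, with vehicle array 3 highest.

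Genes outside the epithelial list also read highest in vehicle array 1. Slc27a2, a fatty acid transporter and acyl-CoA synthetase of liver and kidney, read 8.40, 5.99 and 5.68 after vehicle and 4.45, 4.53 and 4.67 after αGalCer. Its difference was -2.14 ± 0.54 (adjusted p = 0.72), or -1.28 without vehicle array 1, and in wild type it was -2.19 ± 0.51. Kcnmb1, a potassium channel subunit of smooth muscle, read 8.27, 6.12 and 5.82 after vehicle and 5.78, 5.82 and 5.20 after αGalCer, and its difference of -1.14 ± 0.52 became -0.37 without vehicle array 1. Npas2, a clock transcription factor, read 7.37, 5.86 and 5.32 after vehicle and 5.56, 5.34 and 5.17 after αGalCer (-0.83 ± 0.39, -0.23 without that array). The clock list of 15 genes had a median of -0.06 in knockout and -1.11 in wild type.

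Of the 150 genes, 146 had a wild type difference below 0 and 4 above 0, namely Rnase2a, Lcn2, Hpca and Rab15. These 4 were the only ones of the 150 with a called difference between genotypes, against 28.2% of all genes. Hpca (-1.19, gap adjusted p = 0.00485) and Rab15 (-1.01, gap adjusted p = 0.0163), are named here after their values were seen. Rnase2a, an eosinophil-associated ribonuclease gene of a family of near-identical copies that this probe set may not separate, was also the exception to the high vehicle array 1. It read 7.66, 9.96 and 7.82 after vehicle and 6.01, 6.01 and 5.70 after αGalCer, with vehicle array 2 highest and no overlap. The difference was -2.58 ± 0.50 (interval -3.66 to -1.50, adjusted p = 0.72), and -2.99 without vehicle array 1. In wild type it rose by 5.01, from 7.02, 8.12 and 6.73 to between 11.98 and 12.43. The gap of -7.59 was the largest of all genes named here (adjusted p = 1.12e-05). Lcn2 (lipocalin 2), an acute phase protein that binds bacterial siderophores, read 11.86, 10.40 and 9.02 after vehicle and 8.52, 8.11 and 7.89 after αGalCer. Every αGalCer array was lower than every vehicle array (-2.25 ± 0.50, interval -3.34 to -1.16, adjusted p = 0.72), and the difference was -1.53 without vehicle array 1. In wild type Lcn2 had a difference of 1.16 ± 0.47, which was not called (adjusted p = 0.0671), and the gap of -3.41 was called (adjusted p = 0.00228). Lcn2 and Saa3 are both acute phase genes, yet their knockout differences had opposite signs. Over the 13 acute phase genes the median was 0.12 in knockout and 0.12 in wild type.

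**Figure D4:**
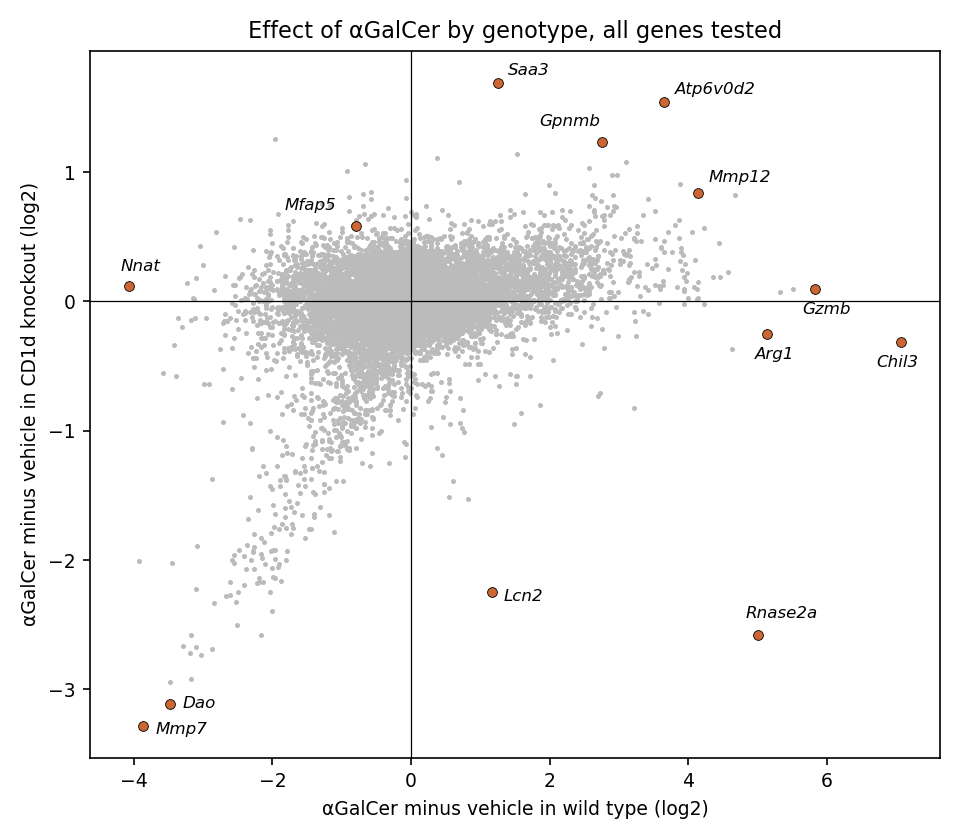
Each grey point is 1 of the 18818 genes, with the difference between αGalCer and vehicle in wild type on the x axis and in CD1d knockout on the y axis (both log2), and orange points mark genes named in the text. Most genes that moved in wild type lie near 0 on the y axis (Chil3, Gzmb, Nnat), a tail of genes lies below 0 in both genotypes (Mmp7, Dao), and Rnase2a and Lcn2 lie below 0 in knockout and above 0 in wild type.

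The promoters of Saa3, Lcn2 and Rnase2a are shown because these genes had the largest knockout differences that were above 0, or opposite in sign to wild type with the largest size. They were chosen after their values were seen. Each line gives the 250 bases before the start of the gene from RefSeq (assembly GRCm38.p6), 5′ to 3′ on the gene's strand, with matches to 3 motifs in capitals. All 3 genes lie on the minus strand, at chr7:46715677-46715926 (Saa3), chr2:32387740-32387989 (Lcn2) and chr14:51256113-51256362 (Rnase2a).
Saa3: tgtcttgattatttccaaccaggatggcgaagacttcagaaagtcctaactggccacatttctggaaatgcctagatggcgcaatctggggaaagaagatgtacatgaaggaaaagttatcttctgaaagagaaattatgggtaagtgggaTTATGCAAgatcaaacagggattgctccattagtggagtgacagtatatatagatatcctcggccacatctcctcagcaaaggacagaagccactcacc
Lcn2: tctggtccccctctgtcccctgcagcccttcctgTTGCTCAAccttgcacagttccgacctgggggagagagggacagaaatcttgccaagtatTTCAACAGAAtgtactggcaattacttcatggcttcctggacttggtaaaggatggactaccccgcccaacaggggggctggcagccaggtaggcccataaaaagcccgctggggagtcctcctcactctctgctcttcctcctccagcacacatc
Rnase2a: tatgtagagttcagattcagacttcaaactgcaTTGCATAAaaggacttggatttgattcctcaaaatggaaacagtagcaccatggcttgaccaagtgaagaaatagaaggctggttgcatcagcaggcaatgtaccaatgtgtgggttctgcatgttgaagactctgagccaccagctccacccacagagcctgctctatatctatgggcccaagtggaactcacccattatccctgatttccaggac
The motifs, searched on both strands, were TTCNNNNGAA (the spacing STAT6 prefers), TTCNNNGAA (other STAT factors) and TTGCNNAA (C/EBP factors, which act in the acute phase response). TTGCNNAA occurred 1 time in each promoter, with its first base at -99 in Saa3, where it lies on the opposite strand, at -216 in Lcn2 and at -217 in Rnase2a, counted from the gene's start. TTCNNNNGAA occurred 1 time in Lcn2, at -156, and TTCNNNGAA in none of the 3, and no matches overlapped. Among 32851 promoters of the same length 9.56% held TTGCNNAA, 5.85% TTCNNNNGAA and 7.02% TTCNNNGAA. A match describes the sequence and does not show that a factor binds there.

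Genes that rose in wild type, chosen on the wild type arrays alone, had small differences above 0 in knockout. The wild type and knockout comparisons share no array, though all arrays were normalised together. The 1392 genes that rose at least 2-fold in wild type had a median difference of 0.16 in knockout, with 79.2% above 0, against 0.01 and 54.1% for all genes. Of these 1392, 324 (23.3%) were higher and 26 (1.87%) lower without overlap in knockout, against 7.79% and 6.04% of all genes. A called difference between genotypes was found for 1290 of them, against 28.2% of all genes. Without vehicle array 1 the median was 0.15 and without αGalCer array 1 it was 0.10, with 69.5% above 0. For the 451 genes that rose at least 4-fold, the median was 2.48 in wild type and 0.24 in knockout, with 87.4% above 0, and 441 of them had a called difference. Relative to their knockout mean, these 451 genes lay at a median of -0.14, -0.10 and -0.12 in the vehicle arrays and 0.31, 0.10 and -0.04 in the αGalCer arrays. All vehicle arrays were thus below all αGalCer arrays, and αGalCer array 1 contributed most (median 0.15 without it).

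Genes that fell in wild type had a median nearer to that of all genes. The 1416 genes that fell at least 2-fold had a median of -0.04 in knockout, with 44.9% above 0, and 241 (17%) were lower and 118 (8.33%) higher without overlap, against 6.04% and 7.79% of all genes. For the 219 genes that fell at least 4-fold the median was -0.16, 33.3% were above 0, and 77 (35.2%) were lower and 12 (5.48%) higher without overlap. Mmp7 and Dao are among the 77. Of these 219, 156 had a called difference between genotypes, against 28.2% of all genes. Across all genes the differences in the 2 genotypes correlated with Pearson's r = 0.34 and Spearman's rho = 0.20, as a description across genes, which are not independent replicates. Without vehicle array 1 Pearson's r was 0.36, and without the epithelial list it was 0.33.

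**Figure D5:**
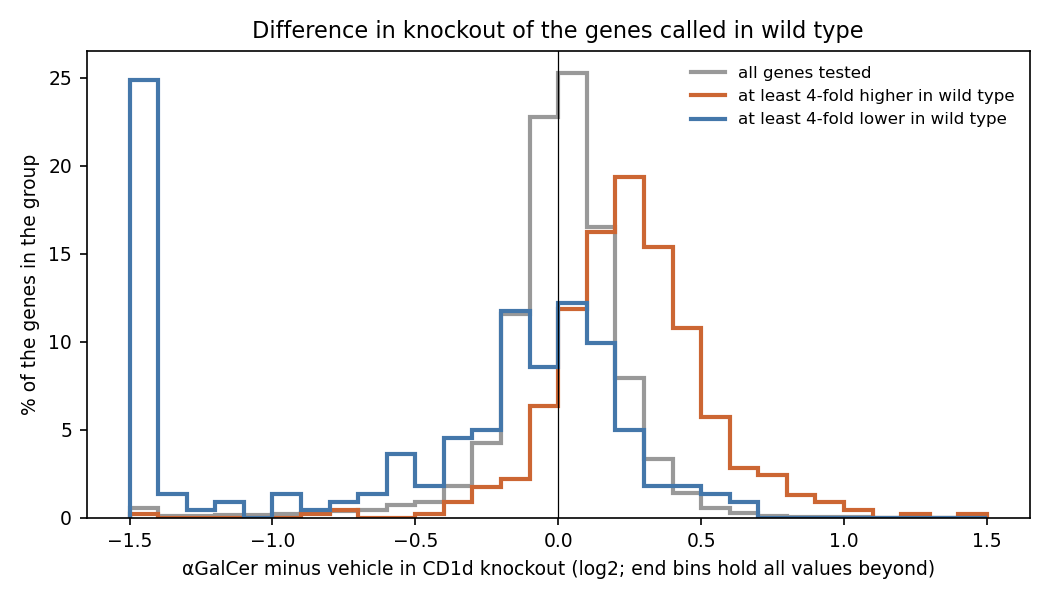
Distribution of the difference between αGalCer and vehicle in CD1d knockout (log2, x axis) as the share of genes in each group (y axis, %), for all 18818 genes (grey), the 451 genes at least 4-fold higher in wild type (orange) and the 219 at least 4-fold lower (blue); the end bins hold all values beyond. The orange group is centred at 0.24 and the grey at 0.01, and the blue group has a tail at the lower end.

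The 5 largest gaps in each direction, picked among called genes, included 1 gene with a large difference in knockout, Rnase2a (-2.58). The other 9 had knockout differences between -0.31 (Chil3) and 0.54 (Btnl9). Besides Chil3, Gzmb, Pdcd1lg2 and Rnase2a, the largest gap towards a lower effect in knockout was that of Tarm1, an activating receptor of myeloid cells. It read 5.90, 5.64 and 5.70 after vehicle and 5.39, 5.62 and 5.45 after αGalCer, slightly lower in every αGalCer array (-0.26 ± 0.19), and rose by 5.14 in wild type. In the other direction stood Nnat, Pck1, Fmo2, Btnl9 and Ptger3. Fmo2, a flavin monooxygenase, overlapped between groups (0.14 ± 0.24) and fell by 3.24 in wild type. Btnl9, a butyrophilin-like gene, read 8.76, 9.30 and 9.58 after vehicle and 9.57, 9.74 and 9.93 after αGalCer (0.54 ± 0.18, adjusted p = 0.72, and 0.31 without vehicle array 1) and fell by 2.82 in wild type. Ptger3, a prostaglandin E2 receptor of adipocytes, read 8.65, 9.12 and 8.94 after vehicle and 8.99, 9.21 and 9.36 after αGalCer. Its groups overlapped (0.28 ± 0.32, 0.16 without vehicle array 1), and it fell by 3.00 in wild type.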

How the data were processed

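The authors deposited 1 table of log2 expression values per probe set for the 13 arrays, made with RMA (background correction, quantile normalisation and summary over probes), per the submitters' processing notes. RMA compresses dim probe sets and so understates differences of weakly expressed genes. Each array took 100 ng of total RNA with an integrity number above 8.0, per the labels. Software version and probe design file are not given in these sources, and no detection calls or scan dates were used. Of 35556 probe sets, 21218 with exactly 1 symbol in the platform annotation were used, and their symbols were updated with the RefSeq gene table (21185 by Entrez identifier, 3 by accession, 30 kept as given). The brightest probe set stood for each of the 1388 genes with several, which left 18818 genes with no filter on dim ones. Values ran from 1.53 to 13.84, with array medians of 5.68 to 5.83. The number of arrays limits the precision.

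limma (version 3.58.1, in R 4.3.3) fitted 1 mean per group to the 13 arrays, with 9 residual degrees of freedom and eBayes with an intensity trend. Tests were two-sided, with Benjamini-Hochberg adjustment over the 18818 genes. Contrasts were αGalCer minus vehicle in each genotype and the difference of the effects. Gene lists are described by counts and medians with no test of their own, and 657 of 720 listed genes were measured. The comparison, lists and rules were chosen with earlier results of these data known. The rule for named genes took the panel of 32, the 10 largest differences each way without overlap, the extremes of each list, the 5 largest gaps between genotypes each way, and the leading genes of the first component, skipping RIKEN, Gm, LOC and predicted genes. Other names are list members picked as examples with their values known. The fit was checked on simulated data. Alternatives changed the variance estimate, the filter on dim genes, the normalisation, the array weights and the choice of probe set, took the replicate number as a block or a muscle or epithelium list as a covariate, and left out each array in turn. Arrays with the same number in the 2 knockout groups did not deviate together (correlations of -0.01, -0.09 and -0.04), so the numbers were not taken to pair arrays.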

Additional observations from a re-analysis of the deposited data

Results flagged for a closer look

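By the test of the difference itself (limma, adjusted p under 0.05), the αGalCer effect differed between knockout and wild type for 38 genes. They are among the panel, the largest knockout differences and the largest gaps. The gaps were picked from called genes, so their call was fixed by that choice. Of all 18818 genes 28.2% were called. Each value below is the knockout effect minus the wild type effect on the log2 scale. Among myeloid genes the effect was lower in knockout for Rnase2a (-7.59), Chil3 (-7.38), Pdcd1lg2 (-5.41), Tarm1 (-5.40), Arg1 (-5.39), Mgl2 (-2.40), Atp6v0d2 (-2.11), Tlr13 (-1.98), Clec10a (-1.87), Mrc1 (-1.51) and Retnla (-0.94). Among genes of lymphocytes and their cytokines it was lower for Gzmb (-5.72), Gzma (-4.34), Prf1 (-3.78), Ifng (-2.98), Rgs1 (-2.03), Ly9 (-1.92), Il4 (-1.43), Il10 (-1.11) and the receptor Il4ra (-2.21). Among inflammatory genes it was lower for Ccl8 (-5.0), Cxcl10 (-4.03), Tnf (-2.38), Cxcl9 (-2.22) and Nos2 (-2.18), and Mki67, the marker of dividing cells, had a value of -1.90.

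The effect was higher in knockout for 12 genes, several of them of adipocytes or vessels. These were Nnat (4.19), Pck1 (3.47), Fmo2 (3.37), Btnl9 (3.36), Ptger3 (3.29), Kdr (2.71), Scg3 (1.95), Lep (1.86), Sfrp4 (1.73), Zbtb16 (1.68), Adipoq (1.50) and Pparg (1.07). Sfrp4 and Scg3 are the members of this group whose knockout groups were also at least 2-fold apart without overlap.

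In the only group of 4 arrays, wild type after αGalCer, Mrc1 was the 1 gene of 32 tested with an array far from the others. It read 11.09 in array 1 and 11.51 to 11.57 in the other 3, a gap of 0.874 of the range, above Dixon's critical value for 4 samples. Chance gives about 1 such case in 20 genes.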

How the results depend on the processing

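The count of 0 genes called in knockout was 0 in 17 of 20 alternatives. Array weights gave 322 genes, among them Rnase2a (-3.68, adjusted p = 0.00659) and Mmp12 (0.80, adjusted p = 0.0227), and 9 of the epithelial list. Leaving out 1 knockout array at a time gave 0 to 2 genes, with 2 (Fam183b and Lcn2) without vehicle array 3. Leaving out the 3 arrays highest in muscle together, an alternative chosen after seeing the data, left vehicle array 3 alone in its group. The genes that passed there were the liver genes Apoa1 (-2.01) and Pzp (-1.46), both highest in that array. The genes with an unadjusted p under 0.05 numbered 1281, and from 537 (epithelial list mean as a covariate) to 3879 (array weights) in the alternatives, with 639 without vehicle array 1. With the replicate number as a block, 0 genes were called in knockout, both with all arrays and with the knockout arrays only, and the difference between genotypes was called for 5461 genes in place of 5309. Without the block that count ran from 4380 to 7225, within 1.5 times, over the alternatives other than the one without the 3 arrays highest in muscle. The 4380 came from testing only the 9409 genes at or above the median gene. It is thus a larger share of the genes tested than 5309 of 18818. The median in knockout of genes that rose in wild type was 0.16 at a limit of 2-fold and 0.24 at 4-fold, and that of genes that fell was -0.04 and -0.16. Of 131 named genes, no called difference between genotypes turned its sign under any alternative, while 64 of the recomputed differences lost the call and 30 gained it (Cd163 with array weights, -0.62, among them). RMA values carry no depth, and dim genes such as Il4, Il10 and Chil3 in knockout lie where the method compresses differences.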

Other observations

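Lists of stress and signalling genes, a few of which are described above, had medians near 0 in knockout fat, with 0 called. Among 16 immediate early genes the median was 0.09, and 3 were higher and 0 lower without overlap (7.79% and 6.04% of all genes). Fos, a subunit of the AP-1 transcription factor, read 5.37, 5.55 and 5.40 after vehicle and 6.95, 6.41 and 5.48 after αGalCer, so arrays 1 and 2 were high and array 3 was at the vehicle level (0.84 ± 0.29, limma adjusted p = 0.72, and 0.50 without array 1). Fkbp5, a target of the glucocorticoid receptor, was lower in every αGalCer array (9.58, 9.01 and 8.98 against 8.75, 8.73 and 8.62). Its difference of -0.49 ± 0.21 was not called (adjusted p = 0.72) and was -0.30 without vehicle array 1, and in wild type it was -0.50, not called either (adjusted p = 0.0597). The glucocorticoid list of 16 genes had a median of -0.08 and ran from -2.25 (Lcn2) to 1.69 (Saa3). In it 1 gene was higher and 3 were lower without overlap (7.79% and 6.04% of all genes). In the unfolded protein and heat shock list (median -0.05 over 12 genes) the chaperone Hsph1 read 8.00, 7.52 and 7.43 after vehicle and 7.35, 7.23 and 7.29 after αGalCer (-0.36 ± 0.16, -0.19 without vehicle array 1), while it rose by 0.67 in wild type.

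Liver transcripts varied between the knockout vehicle arrays in another order than the epithelial genes. Albumin (Alb) read 9.98, 8.92 and 10.72 after vehicle and 8.84, 9.28 and 9.34 after αGalCer, and apolipoprotein A1 (Apoa1) read 6.60, 6.06 and 8.08 against 6.06 in each αGalCer array. Vehicle array 3 was highest in both, and vehicle array 2 lay within or at the edge of the αGalCer range. All 13 genes of this list, which was added after the data were seen, had a difference below 0 in knockout (median -0.40), with 0 called and 0 without overlap, and the median was 0.03 without vehicle array 3. Mesothelial genes, which line the fat pad, had a median of 0.16 over 13 genes, which was -0.04 without αGalCer array 1 and 0.35 without αGalCer array 3. Their list mean was 8.69, 8.85 and 8.67 after vehicle and 9.18, 8.93 and 8.47 after αGalCer, with overlapping groups. Ces1f, a carboxylesterase of fat and liver, was higher in every αGalCer array (9.62, 9.45 and 9.50 against 9.66, 9.94 and 10.09; 0.37 ± 0.12, adjusted p = 0.72) and fell by 1.58 in wild type, and this gap of 1.95 was called (adjusted p = 8.53e-06).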
